A study of Arabidopsis thaliana with 8 samples.

Results

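The calcineurin B-like (CBL) calcium sensors and the CBL-interacting protein kinases (CIPKs) of Arabidopsis thaliana were measured in 4 sample groups, taken at 2 or 21 days after germination. The genes were chosen by name, as the complete set of 26 CIPK and 10 CBL loci, and 35 of these 36 loci (26 CIPK, 9 CBL) matched a probe of the array, out of 25426 loci on it. CBL3 (AT4G26570) matched no probe and was not analysed here. Where a locus had several probes, the one with the brightest mean signal over all 8 arrays was selected, so measured brightness decided which probe stood for a locus, and no difference between groups entered that choice. All plants were of the ecotype Columbia-0, with no treatment stated, and were grown on medium plates in long days. The groups were whole plants at 2 days after germination, the aerial part at 21 days, and young leaves (the 3 newest) and mature leaves (3 older ones, cotyledons left out) taken at 21 days, with 2 biological replicates and 2 arrays each. The study set the 21-day aerial part against the 2-day plants, and mature against young leaves, in total RNA. Between 2 and 21 days the organs sampled changed along with age, since the 2-day plants include the root and the 21-day samples do not.

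CBL proteins bind calcium through EF-hand motifs and, once bound, recruit CIPKs, which are serine/threonine kinases of the SnRK3 group. A CIPK is held inactive by its own regulatory domain, whose NAF motif is the docking site for a CBL, so the sensor both activates the kinase and sets the membrane at which it acts. The pairs are best known for ion transport: CBL4 and CIPK24 form the SOS3 and SOS2 steps of the salt pathway that activates the sodium exporter SOS1, and CBL1 or CBL9 with CIPK23 activates the potassium channel AKT1 and modifies the nitrate transceptor NRT1.1. CBL2 and CBL3 bring kinases to the vacuolar membrane.

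Signals below are given as a percentage of the 75th-percentile signal of the same array, which is set to 100%. They are levels of 1 probe, so they are compared between groups within a gene and never between genes. Between 66.7% and 74.6% of probes were well above background on an array, replicates correlated at 0.994 to 0.996 across genes, which are not independent replicates, and the 75th-percentile raw signal was 490 to 520 in mature leaves against 806 to 1059 on the other arrays. The 2-day plants and the aerial part shared 1 slide, and the young and mature leaves shared another, so each comparison lies within a slide, while a level set across the slides cannot be told apart from the slide. Of the 35 genes, 28 were well above background on all 8 arrays. CIPK13, CBL6 and CBL8 passed the detection filter only through the 2-day plants, CBL5 only through the aerial part and mature leaves, CIPK18 was not well above background in mature leaves, CIPK19 was not in young leaves, and CIPK22 was on 1 of 2 mature-leaf arrays. In whole tissue, fewer cells of a type and less RNA per cell cannot be told apart.

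**Figure D1:**
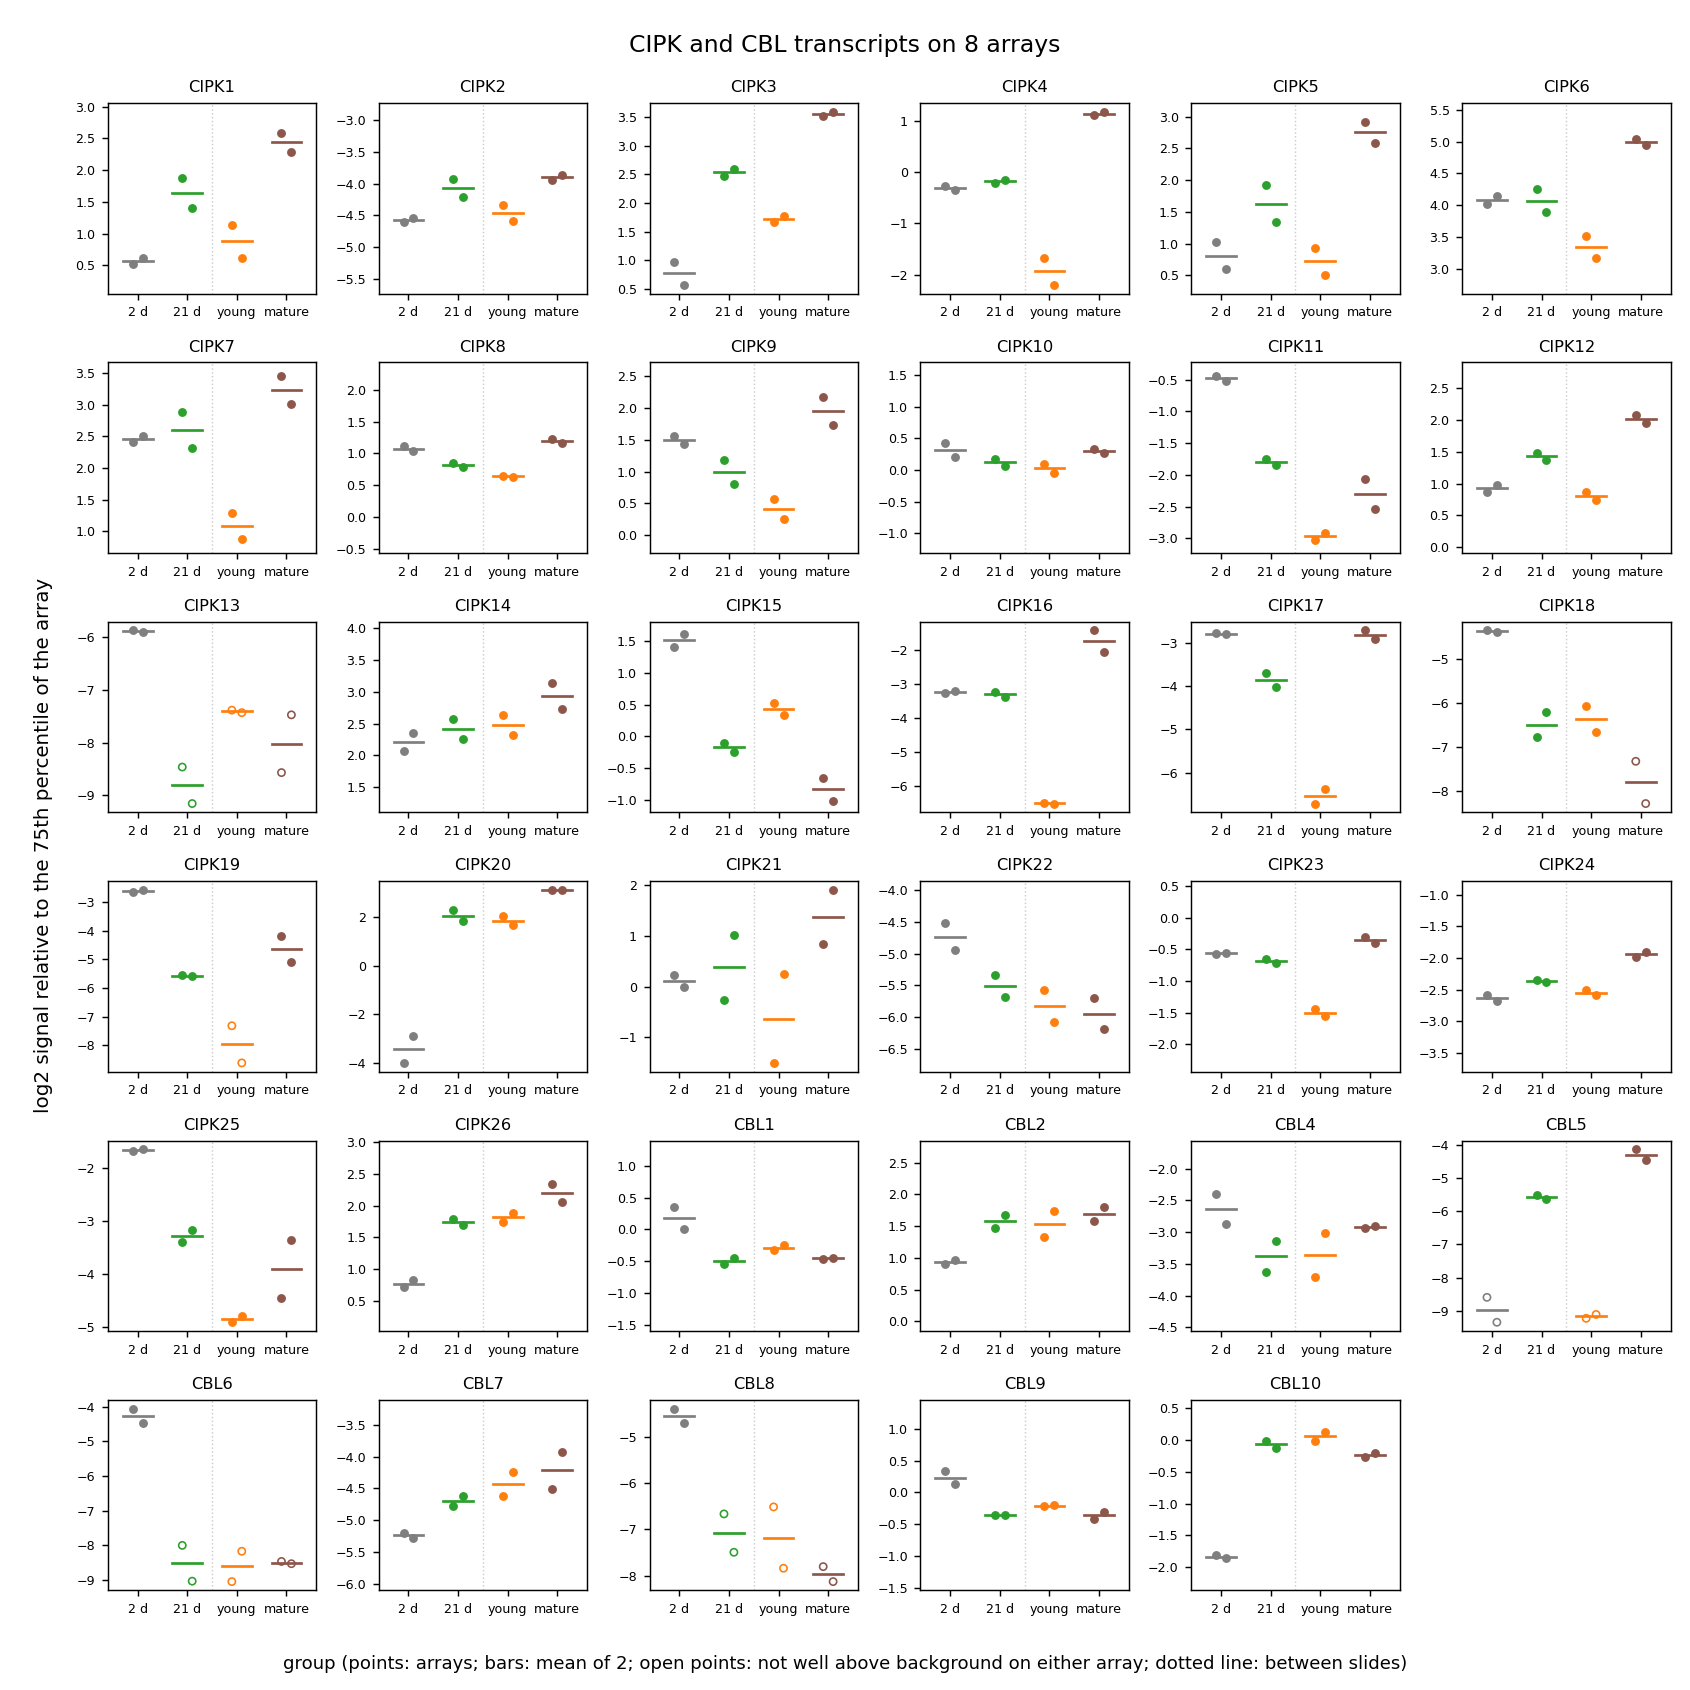
Signal of each CIPK and CBL gene on each array, as log2 relative to the 75th percentile of the array, with points for arrays, bars for the mean of 2 arrays, open points for groups in which neither array was well above background, and a dotted line between the slides. Of the 28 genes above background on all arrays, the lowest mean is in young leaves for 14 and the highest in mature leaves for 19. This ranking crosses the slides, rests on the 75th-percentile scaling and was not counted over all loci. CBL6, CBL8 and CIPK13 are above background only at 2 days.

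The first comparison asks how the shoot at 21 days differs from the young seedling. The sensors and kinases moved in both directions. CIPK20 rose 44.4-fold, CBL10 and CIPK3 rose 3.4-fold and 3.39-fold, and CBL5, undetected at 2 days, became detectable. CIPK19 fell 7.78-fold, CIPK18, CIPK15 and CIPK25 fell 4.3-fold, 3.22-fold and 3.09-fold, and CBL6, CBL8 and CIPK13 went below detection. In limma's test across 20629 loci, at a Benjamini-Hochberg adjusted p under 0.05, 11 of the 35 genes were called higher where 34.8% of all loci were, and 13 were called lower where 40.3% of all loci were. With a fold of at least 2 as well, 5 rose and 9 fell, the bound standing in where 1 group was undetected, and 35% of all loci passed that rule in either direction. Values after ± are standard errors of the fit, with n = 2 arrays per group throughout. In all, 68.6% of the genes were called against 75.1% of all loci, and their median log2 fold change was -0.07, as was that of all loci. On the order of the arrays, 13 genes had both aerial-part arrays above both 2-day arrays and 17 had them below (41.4% and 47.1% of all loci), and CIPK6, CIPK7, CIPK14, CIPK16 and CIPK21 overlapped. Among these calls, those of CIPK13, CBL5, CBL6 and CBL8 belong to genes that passed the filter only through the groups where they are high.

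Markers of other tissues moved with this comparison. All 16 root marker genes fell. Their summed signal was 21618% to 23553% of the 75th percentile at 2 days and 966% to 1148% in the aerial part. PYK10 made up most of these sums, with a mean log2 signal of 7.72 at 2 days and 3.08 in the aerial part. In the aerial part 9 of the 16, among them PLT1, PLT2, SMB and the root-hair genes EXPA7 and COBL9, were not well above background. EXPA7, EXPA18 and COBL9 fell at least 191-fold, at least 135-fold and at least 193-fold. All 8 dividing-cell markers fell too, with log2 fold changes of -0.90 to -1.99, AUR1, CYCB1;1 and HIK the most with -1.99 ± 0.08, -1.58 ± 0.14 and -1.53 ± 0.16. All 5 guard-cell, all 5 phloem and all 5 mesophyll markers rose, although quantile normalization called 3 mesophyll markers higher and 1 lower. The leading ones were GC1, HT1 and FAMA (4.75 ± 0.21, 1.83 ± 0.08 and 1.74 ± 0.10), SEOR1, SULTR2;1 and AHA3 (3.45 ± 0.17, 3.38 ± 0.14 and 1.81 ± 0.09), and LHCB2.1, RCA and GAPA (1.78 ± 0.21, 1.18 ± 0.19 and 0.63 ± 0.09). The part of these tissues in the CBL and CIPK differences was not tested.

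Among the sensors, CBL10 (AT4G33000), which is known from the shoot salt response and binds CIPK24, gave 28.5% and 27.6% of the 75th-percentile signal at 2 days and 99.4% and 91.6% in the aerial part. Its log2 fold change was 1.77 ± 0.08 (adjusted p = 1.13e-05), and its second probe, not selected, was called higher as well. CBL5 (AT4G01420), a plasma-membrane type sensor, was not well above background at 2 days, with 0.258% and 0.153%, and read 2.19% and 2.03% in the aerial part. CBL5 was thus at least 2.97-fold higher in the aerial part (adjusted p = 6.43e-05), a bound set by the dimmest well-above-background signal of the 2-day arrays. CBL2 (AT5G55990), a vacuolar-membrane sensor, rose from 187% and 196% to 277% and 321%, a log2 fold change of 0.64 ± 0.16 (adjusted p = 0.0121). That call was lost when replicate 1 of the 2-day plants or replicate 2 of the aerial part was left out, with values of 0.61 (adjusted p = 0.06) and 0.53 (adjusted p = 0.0658).

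The sensors CBL6 and CBL8 were well above background in the 2-day plants alone. CBL6 (AT4G16350) read 6.04% and 4.54% at 2 days and 0.39% and 0.191% in the aerial part, where it was not well above background, so it was at least 6.82-fold lower (adjusted p = 0.000209). CBL8 (AT1G64480) read 4.82% and 3.89% at 2 days and 0.987% and 0.554% in the aerial part, at least 4.93-fold lower (adjusted p = 0.00352), and its second probe was called lower too. Neither gene was well above background in young or mature leaves. CBL1 (AT4G17615) and CBL9 (AT5G47100), the close pair of plasma-membrane sensors that share CIPK1 and CIPK23 as partners, both fell. CBL1 went from 127% and 100% to 68.5% and 73.5%, a log2 fold change of -0.67 ± 0.12 (adjusted p = 0.00303). CBL9 went from 126% and 109% to 78.2% and 78.3%, a log2 fold change of -0.58 ± 0.09 (adjusted p = 0.00137). CBL4 (AT5G24270), the SOS3 sensor, read 18.9% and 13.7% and then 8.11% and 11.3%, with no overlap of the arrays and no call, at -0.75 ± 0.29 (adjusted p = 0.054). CBL4 passed the threshold without replicate 2 of the aerial part, at -0.99 (adjusted p = 0.0483), and under 5 other settings. CBL7 (AT4G26560) read 2.73% and 2.56% at 2 days and 3.67% and 4.05% in the aerial part and was not called, at 0.54 ± 0.22 (adjusted p = 0.0618), though 7 alternative settings called it higher.

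Among the kinases that rose, CIPK20 (AT5G45820) had the widest span of group means in the family, 6.52 on the log2 scale, between 2-day plants and mature leaves on different slides. It read 6.32% and 13.7% at 2 days and 479% and 356% in the aerial part, a log2 fold change of 5.47 ± 0.37 (adjusted p = 4.44e-05), and the gap between the groups far exceeded the spread within either. CIPK3 (AT2G26980), a partner of CBL2 and CBL3 that is also known from abscisic acid and cold responses, went from 197% and 148% to 553% and 608%, or 1.76 ± 0.14 (adjusted p = 9.41e-05). CIPK1 (AT3G17510), which CBL1 and CBL9 bind in osmotic and abscisic acid responses, went from 143% and 153% to 366% and 266%, or 1.07 ± 0.23 (adjusted p = 0.006). Both genes had 3 probes, and all of them were called higher. CIPK26 (AT5G21326), another CBL2 and CBL3 partner, rose from 164% and 178% to 344% and 324%, or 0.97 ± 0.12 (adjusted p = 0.000487), just under 2-fold, and its 3 probes agree in direction and call.

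The other kinases called higher changed by less than 2-fold. CIPK5 read 204% and 151% at 2 days and 379% and 252% in the aerial part, and CIPK12 read 183% and 198% and then 279% and 260%. CIPK2 had mean levels of 4.19%, 5.96%, 4.55% and 6.68% at 2 days, in the aerial part, in young and in mature leaves. CIPK5 (AT5G10930) gave 0.82 ± 0.27, CIPK2 (AT5G07070) 0.51 ± 0.13, CIPK12 (AT4G18700) 0.50 ± 0.09 and CIPK24 (AT5G35410), the SOS2 kinase, 0.27 ± 0.07 on the log2 scale. CIPK12 kept its call whichever array was left out, and the other 3 calls were lost on the omission of a single array. With spike-in scaling CIPK12, CIPK5, CIPK2 and CBL2 were not called, at 0.22, 0.53, 0.22 and 0.35, and CIPK24 turned to -0.014. CIPK5 was not called without replicate 2 of the 2-day plants, 0.60 (adjusted p = 0.162), or without replicate 1 of the aerial part, 0.52 (adjusted p = 0.155). CIPK2 was not called without replicate 1 of the 2-day plants, 0.48 (adjusted p = 0.0563), or without replicate 1 of the aerial part, 0.37 (adjusted p = 0.0584). For CIPK24 the same held without replicate 2 of the 2-day plants, 0.22 (adjusted p = 0.0586), or without replicate 1 or 2 of the aerial part, 0.26 (adjusted p = 0.0712) and 0.28 (adjusted p = 0.0578).

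Of the kinases that fell, CIPK19 (AT5G45810), known from pollen tube growth, went from 15.8% and 16.9% at 2 days to 2.13% and 2.07% in the aerial part, a log2 fold change of -2.96 ± 0.47 (adjusted p = 0.00169). CIPK18 (AT1G29230) went from 4.85% and 4.72% to 0.913% and 1.35%, or -2.11 ± 0.37 (adjusted p = 0.00271). CIPK15 (AT5G01810), which inhibits the AMT1 ammonium transporters by phosphorylation, went from 265% and 307% to 93% and 84.3%, or -1.69 ± 0.15 (adjusted p = 0.000133). In each of these the 2-day arrays lay close together and well above the aerial-part arrays. CIPK25 (AT5G25110) went from 31.2% and 32.1% to 9.45% and 11.1%, or -1.63 ± 0.33 (adjusted p = 0.00501). CIPK11 (AT2G30360), a negative regulator of the plasma-membrane proton pump AHA2, went from 73.8% and 69.7% to 29.7% and 27.8%, or -1.32 ± 0.16 (adjusted p = 0.000509). CIPK17 (AT1G48260) went from 14.7% and 14.4% to 7.67% and 6.21%, or -1.07 ± 0.16 (adjusted p = 0.00112). The dim second probe of CIPK11, well above background on 3 of 8 arrays, was lower in the mean and not called.

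CIPK13 (AT2G34180) read 1.7% and 1.67% at 2 days and was not well above background in the aerial part, at 0.284% and 0.176%, so it was at least 2.19-fold lower (adjusted p = 0.00072). Under normexp background correction it was no longer called, at -0.065 (adjusted p = 0.436). CIPK22 (AT2G38490) and CIPK8 (AT4G24400), the latter known from nitrate signalling, fell by smaller amounts, -0.78 ± 0.27 and -0.26 ± 0.07. CIPK22 had mean levels of 3.76%, 2.19%, 1.77% and 1.62% at 2 days, in the aerial part, in young and in mature leaves. CIPK22 was not called without replicate 1 of the 2-day plants, -0.57 (adjusted p = 0.179), nor without replicate 1 or 2 of the aerial part, -0.96 (adjusted p = 0.0509) and -0.60 (adjusted p = 0.162), and CIPK8 was not called without replicate 2 of the aerial part, -0.23 (adjusted p = 0.0754). Normexp and quantile normalization also ended the call of CIPK22, at -0.053 and -0.48, and a fit of only the 4 arrays compared ended that of CIPK8 (adjusted p = 0.0529).

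The 9 kinases with no call were CIPK4, CIPK6, CIPK7, CIPK9, CIPK10, CIPK14, CIPK16, CIPK21 and CIPK23, with log2 fold changes between -0.50 ± 0.21 for CIPK9 and 0.28 ± 0.71 for CIPK21. CIPK23 (AT1G30270), the AKT1 and NRT1.1 kinase, read 67.4% and 68% at 2 days and 63.9% and 60.5% in the aerial part. With spike-in scaling CIPK23 was called lower, at -0.41 (adjusted p = 0.0316). CIPK9 (AT1G01140), also a potassium kinase, read 295% and 269% at 2 days and 227% and 175% in the aerial part (adjusted p = 0.067), and without replicate 1 of the aerial part it was called lower, at -0.69 (adjusted p = 0.0496). Normexp (adjusted p = 0.0418), spike-in scaling (adjusted p = 0.019), a variance trend (adjusted p = 0.0455) and a fit of only the 4 arrays compared (adjusted p = 0.0406) also called CIPK9 lower. CIPK10 (AT5G58380) was called lower without replicate 2 of the 2-day plants, at -0.31 (adjusted p = 0.0369), and with spike-in scaling, at -0.49 (adjusted p = 0.037). CIPK6 (AT4G30960), which works with CBL4 on the potassium channel AKT2, read 1625% and 1767% at 2 days and 1904% and 1483% in the aerial part, with the arrays overlapping. CIPK4 read 82.8% and 78.9% and then 86.4% and 90.3%, and CIPK16 read 10.3% and 10.9% and then 10.7% and 9.59%. CIPK7 read 529% and 566% at 2 days and 737% and 498% in the aerial part. CIPK21 read 117% and 98.9% at 2 days and lay on both sides of that in the aerial part, with 83.6% and 203%. CIPK10 had mean levels of 125% at 2 days and 109% in the aerial part, and CIPK14 of 461% and 534%.

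**Figure D2:**
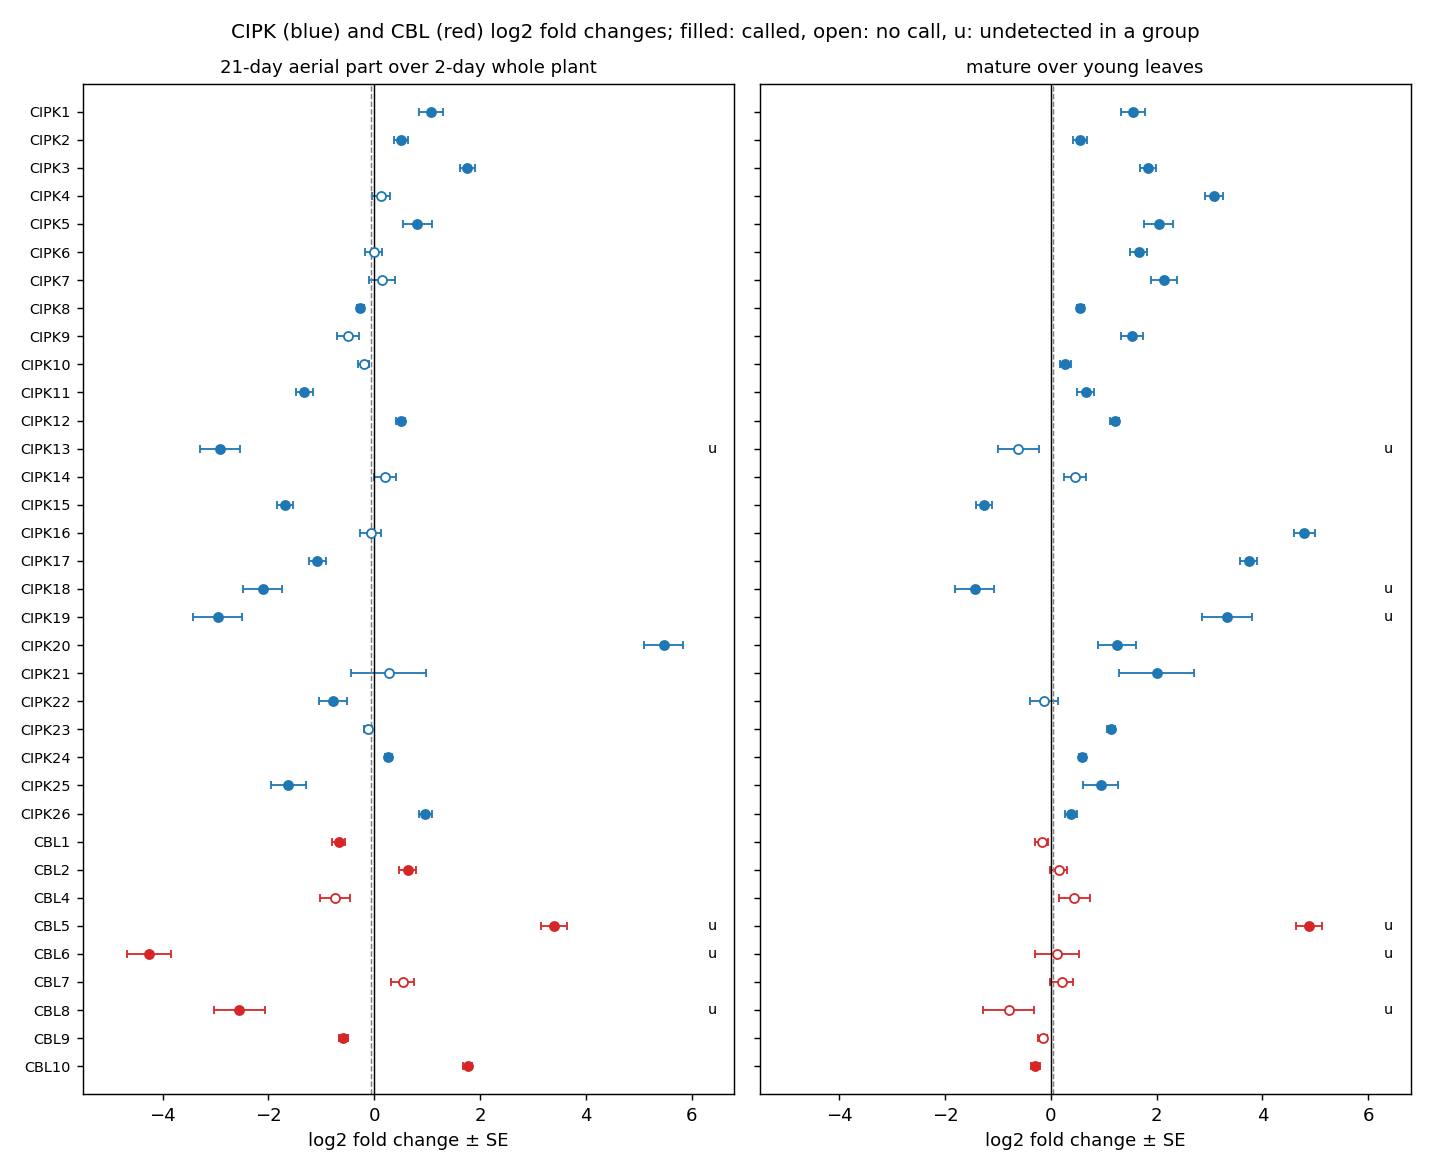
log2 fold change ± SE of each gene in the 21-day aerial part over the 2-day whole plant (left) and in mature over young leaves (right), with CIPK genes in blue and CBL genes in red, filled points for called genes, open points for genes not called, the letter u where a group was undetected, and a dashed line at the median of all loci. The CIPK points lie on both sides of 0 on the left and mostly to the right of 0 on the right. There 21 of 26 CIPK genes are called higher (10 with spike-in scaling) and 1 of 9 CBL genes is. Of all loci 35.8% are called higher there, or 1840 of 20629 with spike-in scaling.

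The leaf comparison asks what separates mature from young leaves at 21 days. Of 26 CIPK genes 21 were higher in mature leaves (10 with spike-in scaling), 2 were lower and 3 were not called, with a median log2 fold change of 1.17. Of the 9 CBL genes only CBL5 was called higher and only CBL10 lower, with a median of 0.11, while normexp background correction also called CBL4, CBL6, CBL7 and CBL8 higher. Of these CBL6 and CBL8 were undetected in both leaf classes. CIPK16 rose 27.7-fold, CIPK17 13.4-fold and CIPK4 8.48-fold, and CIPK19 and CBL5 were undetected in young leaves and present in mature ones. Together 22 of 35 genes were called higher, where 35.8% of all loci were, and 3 lower, where 35.5% of all loci were. At a fold of at least 2 as well, 15 rose and CIPK15 fell, and 29.5% of all loci passed that rule in either direction. The share called in either direction, 71.4%, was near the 71.3% of all loci. The median log2 fold change of the genes was 0.60, and that of all loci was 0.04. Both mature-leaf arrays lay above both young-leaf arrays in 24 genes and below in 6 (45.1% and 42.5% of all loci), with overlap in CIPK22, CBL2, CBL6, CBL7 and CBL8. Whether the kinases and the sensors differ from each other was not tested.

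The count of genes called higher depends on the scaling. It was 29 with normexp background correction, 23 with median scaling, 21 with quantile normalization and 11, beside 12 called lower, when arrays were scaled to the spike-in probes. Among all loci called, the share called higher was 50.2% as reported, 63.7% with normexp, 63.5% with median scaling, 57.3% with no filter on dim probes and 11.3% with spike-in scaling, which moved the median of all loci by -0.91 on the log2 scale. Normexp moved that median by 0.18, median scaling by 0.26 and the lack of a filter by 0.18. Relative to the median of all loci, 22 of 26 CIPK genes lay above it as reported, 22 with quantile normalization and 25 with normexp. Median and spike-in scaling shift all genes alike and cannot change that count. In the first comparison spike-in scaling moved the median of all loci by -0.28 and left 6 genes called higher and 17 lower, with 31.3% of all called loci higher against 46.4% as reported.

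Other tissue markers moved here as well. All 8 dividing-cell markers fell, with a summed signal of 796% to 801% in young leaves and 45.1% to 50.1% in mature leaves. HIK, CYCB1;2 and CYCB1;1 gave -6.15 ± 0.16 and -5.95 ± 0.24 on the log2 scale and a fall of at least 25.4-fold, the last being undetected in mature leaves. Of 5 phloem markers 4 rose and SEOR1 fell, with the sum going from 1502% to 1570% in young leaves to 3352% to 3798% in mature leaves, led by SULTR2;1, SUC2 and AHA3 (1.78 ± 0.14, 1.62 ± 0.11 and 1.499 ± 0.09). Of 5 mesophyll markers 3 rose, RCA, CAB3 and RBCS1A (0.82 ± 0.19, 0.78 ± 0.10 and 0.39 ± 0.08). With quantile normalization 1 mesophyll marker rose and 2 fell, and with spike-in scaling RBCS1A, LHCB2.1 and GAPA fell. Of 5 guard-cell markers 2 fell, MYB60 and HT1 (-0.62 ± 0.09 and -0.31 ± 0.08). With median scaling 1 guard-cell marker rose and 1 fell, and with spike-in scaling all 5 fell. Of 4 senescence markers tested, ORE1, SEN1 and NYE1 rose, ORE1 and SEN1 by 5.77 ± 0.10 and 4.72 ± 0.18, and WRKY53 fell at least 10.3-fold, while SAG12, the late senescence protease, was undetected in all 4 groups. Root markers stayed low, with sums of 254% to 281% in young and 217% to 234% in mature leaves, mostly SCR and SHR. In these classes 10 and 11 of 16 were undetected. Of the 16, 6 were called higher, 5 of them undetected in both leaf classes, and 3 lower, while normexp called 12 higher and 1 lower, quantile normalization 2 and 4, and spike-in scaling 1 and 10. CASP1 fell at least 2.77-fold, MYB36 rose at least 2.71-fold and WER was undetected in both. The part of these tissues in the kinase differences was not tested.

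CIPK16 (AT2G25090), which is able to activate AKT1 and is linked to salt tolerance, showed the largest measured change among the genes detected in both leaf classes. It read 1.08% and 1.08% in young and 37.3% and 24.2% in mature leaves, a log2 fold change of 4.79 ± 0.20 (adjusted p = 9.12e-06). CIPK17 read 0.95% and 1.2% in young and 15.3% and 13.3% in mature leaves, or 3.74 ± 0.16 (adjusted p = 9.35e-06). Both were close to background in young leaves yet well above it on both arrays, and the mature-leaf arrays were all more than 10 times as bright. CIPK4 (AT4G14580) read 31.3% and 21.7% in young and 216% and 227% in mature leaves, or 3.08 ± 0.17 (adjusted p = 2.33e-05). CIPK19 was not well above background in young leaves, with 0.626% and 0.254%, and read 5.56% and 2.91% in mature leaves, so it was at least 4.94-fold higher (adjusted p = 0.0011).

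The potassium, nitrate and salt kinases CIPK23, CIPK9, CIPK6, CIPK3, CIPK8 and CIPK24 were called higher in mature leaves, CIPK8 and CIPK24 with a sign that turned under spike-in scaling. CIPK23 went from 36.7% and 34.1% to 81% and 75.5%, a log2 fold change of 1.14 ± 0.08 (adjusted p = 4.72e-05). CIPK9 went from 148% and 120% to 453% and 331%, or 1.54 ± 0.21 (adjusted p = 0.000873). CIPK6 went from 1144% and 898% to 3309% and 3100%, or 1.66 ± 0.16 (adjusted p = 0.000239). In none of these did the leaf classes overlap, and each change was several times its standard error. CIPK3 went from 318% and 341% to 1148% and 1209%, or 1.84 ± 0.14 (adjusted p = 8.9e-05), and all 3 of its probes were called higher. CIPK8 and CIPK24 rose by less, with 0.56 ± 0.07 and 0.60 ± 0.07 on small standard errors. With spike-in scaling CIPK23 was not called, at 0.24 (adjusted p = 0.149), and CIPK8 and CIPK24 turned to -0.35 (adjusted p = 0.052) and -0.31 (adjusted p = 0.0975).

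CIPK1, CIPK7, CIPK20, CIPK5 and CIPK12 were called higher as well. CIPK1 went from 220% and 154% to 604% and 490%, a log2 fold change of 1.56 ± 0.23 (adjusted p = 0.00129), with all 3 probes called higher. CIPK7 (AT3G23000), which binds CBL1 and is linked to cold, went from 246% and 184% to 1090% and 804%, or 2.14 ± 0.25 (adjusted p = 0.000499). CIPK20 went from 406% and 316% to 846% and 857%, or 1.25 ± 0.37 (adjusted p = 0.0226). CIPK1 and CIPK7 were called whichever array was left out. CIPK20 was not called without replicate 2 of young leaves, 1.07 (adjusted p = 0.0992), or without replicate 1 or 2 of mature leaves, 1.26 (adjusted p = 0.0701) and 1.24 (adjusted p = 0.0722), or with spike-in scaling, 0.35 (adjusted p = 0.349). CIPK5 went from 191% and 142% to 757% and 603%, or 2.04 ± 0.27 (adjusted p = 0.000846). CIPK12, which is known from pollen tube growth, went from 183% and 167% to 421% and 387%, or 1.21 ± 0.09 (adjusted p = 7.37e-05), and with spike-in scaling it was not called, at 0.30 (adjusted p = 0.0762).

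CIPK21 (AT5G57630), which acts with CBL2 and CBL3 under salt stress, was the least certain of the large changes. It read 35.3% and 118% in young and 178% and 374% in mature leaves, a log2 fold change of 2.00 ± 0.71 (adjusted p = 0.0434). The second array of young leaves and the first of mature leaves lay close to each other. The call was lost without replicate 1 of young leaves, 1.13 (adjusted p = 0.186), without replicate 2 of mature leaves, 1.47 (adjusted p = 0.178), with only the 4 arrays compared, 2.00 (adjusted p = 0.088), and with spike-in scaling (adjusted p = 0.141). In all 3 groups of 21-day plants replicate 2 was higher than replicate 1 by more than 1 on the log2 scale (1.28 in the aerial part, 1.74 in young leaves and 1.07 in mature leaves), and at 2 days it was not, at -0.24. The median standard deviation between replicates was 0.142 for these genes and 0.078 for all loci, and in young leaves it was 0.219 against 0.065.

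The smaller rises were those of CIPK25, CIPK11, CIPK2, CIPK26 and CIPK10, with 0.95 ± 0.33, 0.66 ± 0.16, 0.55 ± 0.13, 0.38 ± 0.12 and 0.28 ± 0.10 on the log2 scale. CIPK25 read 3.33% and 3.62% in young and 4.59% and 9.77% in mature leaves, and CIPK11 read 12.3% and 13.2% and then 23.9% and 17.1%. The mean levels of CIPK26 were 352% and 458%, and those of CIPK10 were 102% and 123%. CIPK25 was not called without replicate 1 or 2 of young leaves, 0.89 (adjusted p = 0.134) and 1.01 (adjusted p = 0.0984), nor with spike-in scaling, 0.042 (adjusted p = 0.911), and a fit of only the 4 arrays compared called neither CIPK25 nor CIPK26. CIPK11 was not called without replicate 1 of young leaves, 0.61 (adjusted p = 0.052). CIPK26 was not called without replicate 1 of young leaves, 0.31 (adjusted p = 0.125), or replicate 1 of mature leaves, 0.24 (adjusted p = 0.111). CIPK2 kept its call in all 4 of these omissions. The call of CIPK10 was lost without any 1 of the 4 arrays, with values of 0.34, 0.21, 0.25 and 0.31. Spike-in scaling turned CIPK2, CIPK10, CIPK11 and CIPK26 to -0.35, -0.63, -0.24 and -0.53.

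CIPK15 and CIPK18 ran the other way. CIPK15 read 143% and 126% in young and 63.1% and 49.6% in mature leaves, a log2 fold change of -1.26 ± 0.15 (adjusted p = 0.000508), and it fell whichever array was left out. CIPK18 read 1.5% and 0.988% in young leaves and was not well above background in mature leaves, at 0.626% and 0.323%, a fall of at least 1.03-fold (adjusted p = 0.0142). CIPK18 was not called without replicate 1 of young leaves, -1.14 (adjusted p = 0.0717), and normexp turned it to 0.46 (adjusted p = 0.000787). CIPK14 was not called, with 622% and 498% in young and 883% and 662% in mature leaves, and without replicate 2 of mature leaves it was, at 0.67 (adjusted p = 0.0451). CIPK22 (called in neither direction) overlapped between the leaf classes, and CIPK13 was undetected in both.

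Among the sensors, CBL5 was the 1 gene called higher. It was not well above background in young leaves, with 0.167% and 0.18%, and read 5.72% and 4.56% in mature leaves, at least 6.27-fold higher (adjusted p = 1.93e-05). CBL10 read 99.2% and 109% in young and 83.2% and 87.2% in mature leaves, or -0.29 ± 0.08 (adjusted p = 0.0199). The second probe of CBL10 was called lower too, while the call of the selected one was lost without replicate 2 of young leaves, -0.22 (adjusted p = 0.115), without replicate 1 of mature leaves, -0.26 (adjusted p = 0.0873), and with median scaling, -0.031 (adjusted p = 0.757). CBL1, CBL2, CBL4, CBL7 and CBL9 were detected in both leaf classes and not called, with log2 fold changes from -0.17 ± 0.12 for CBL1 to 0.45 ± 0.29 for CBL4. CBL9 gave -0.15 ± 0.09, and with spike-in scaling CBL1 and CBL9 were called lower, at -1.08 (adjusted p = 0.000828) and -1.06 (adjusted p = 0.000556). That scaling also called CBL2 and CBL7 lower, at -0.75 (adjusted p = 0.00398) and -0.70 (adjusted p = 0.0264), and did not call CBL4, at -0.46 (adjusted p = 0.16). CBL6 and CBL8 were undetected in both leaf classes.

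**Figure D3:**
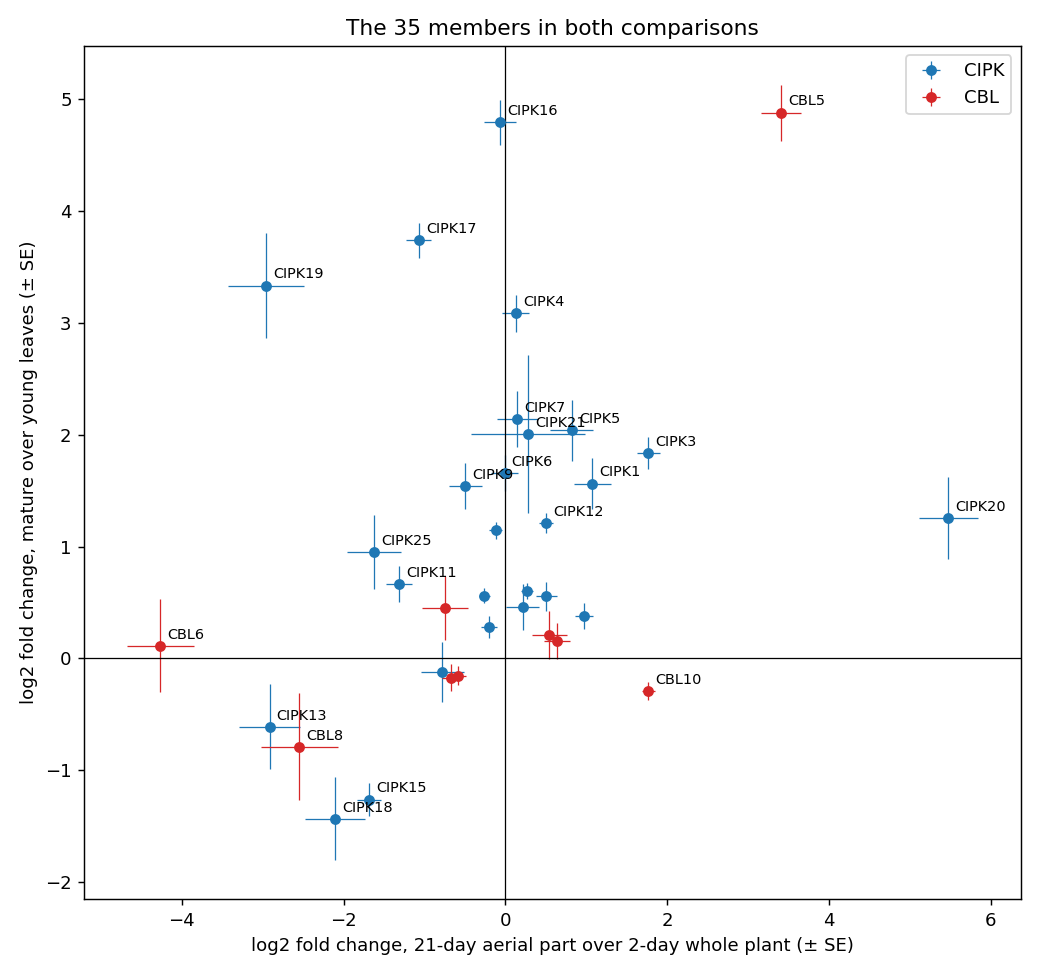
log2 fold change of the 35 genes in the 21-day aerial part over the 2-day whole plant (horizontal axis) and in mature over young leaves (vertical axis), with bars for the SE and names beside genes that changed by more than 1.2 in either. CBL5 and CIPK20 lie far to the upper right, CIPK19, CIPK17, CIPK25 and CIPK11 lie to the upper left, and CIPK15 and CIPK18 lie to the lower left.

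Set side by side, the comparisons use different arrays, so they share no control. Higher in both were 9 genes, CIPK1, CIPK2, CIPK3, CIPK5, CIPK12, CIPK20, CIPK24, CIPK26 and CBL5, or 25.7%, where 19.8% of all loci were. Lower in the aerial part and higher in mature leaves were 5 genes, CIPK8, CIPK11, CIPK17, CIPK19 and CIPK25, or 14.3%, against 8.63% of all loci. CIPK15 and CIPK18 were lower in both, or 5.71%, where 21.1% of all loci were, and CBL10 alone was higher in the aerial part and lower in mature leaves, as 6.13% of all loci were. The 8 genes called higher in mature leaves with no call in the aerial part were CIPK4, CIPK6, CIPK7, CIPK9, CIPK10, CIPK16, CIPK21 and CIPK23, or 22.9% against 7.39% of all loci. Lower in the aerial part with no call between leaf classes were CIPK13, CIPK22, CBL1, CBL6, CBL8 and CBL9, or 17.1% against 10.6% of all loci. CBL2 was higher with no call, and CIPK14, CBL4 and CBL7 were called in neither. Among the 28 genes well above background on all arrays, the highest mean was in mature leaves for 19, in 2-day plants for 8 and in young leaves for 1, and the lowest was in young leaves for 14. These orders set leaves against whole plants and shoots across the slides, and they were not counted over all loci. They rest on the 75th-percentile scaling and were not redone with spike-in scaling, which moved the median between leaf classes by -0.91. The mean of the aerial part lay between those of young and mature leaves for 21 of these 28 genes, or 75%, against 72.6% of the 17121 loci well above background on all arrays.

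In none of the known sensor and kinase pairs examined did both partners have the same calls in both comparisons. No combination of calls held more than 21.1% of all loci, so unlike calls are no result about the pairs. The difference within a pair was not tested. In the salt pathway CIPK24 read 16.1%, 19.5%, 17.1% and 26% at 2 days, in the aerial part, in young and in mature leaves, as geometric means of 2 arrays. In the same order its root partner CBL4 read 16.1%, 9.59%, 9.69% and 13.2%, and its shoot partner CBL10 read 28%, 95.5%, 104% and 85.1%. CIPK24 was called higher in both comparisons, and in neither with spike-in scaling. CBL4 was called in neither comparison, and CBL10 was higher in the aerial part than in the 2-day plants and lower in mature leaves. CIPK6, the other CBL4 partner, read 1694%, 1680%, 1014% and 3203%. For the potassium and nitrate pairs, CIPK23 read 67.7%, 62.2%, 35.4% and 78.2%, CBL1 113%, 70.9%, 82% and 72.7% and CBL9 117%, 78.2%, 86.5% and 77.8%, and between leaf classes the kinase rose 2.21-fold while neither sensor was called. Of the vacuolar set, CBL2 read 192%, 298%, 289% and 322%, CIPK3 171%, 580%, 330% and 1178%, CIPK9 282%, 199%, 133% and 387% and CIPK26 171%, 334%, 352% and 458%. CBL2 was not called between leaf classes and all 4 of its partners here, CIPK3, CIPK9, CIPK23 and CIPK26, were higher in mature leaves. With spike-in scaling CBL1, CBL2, CBL9 and CIPK26 were called lower between leaf classes, CIPK23 was not called, and CIPK3 and CIPK9 stayed higher. CBL7 and CIPK8 read 2.65%, 3.85%, 4.65% and 5.38% and 211%, 176%, 156% and 229%.

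**Figure D4:**
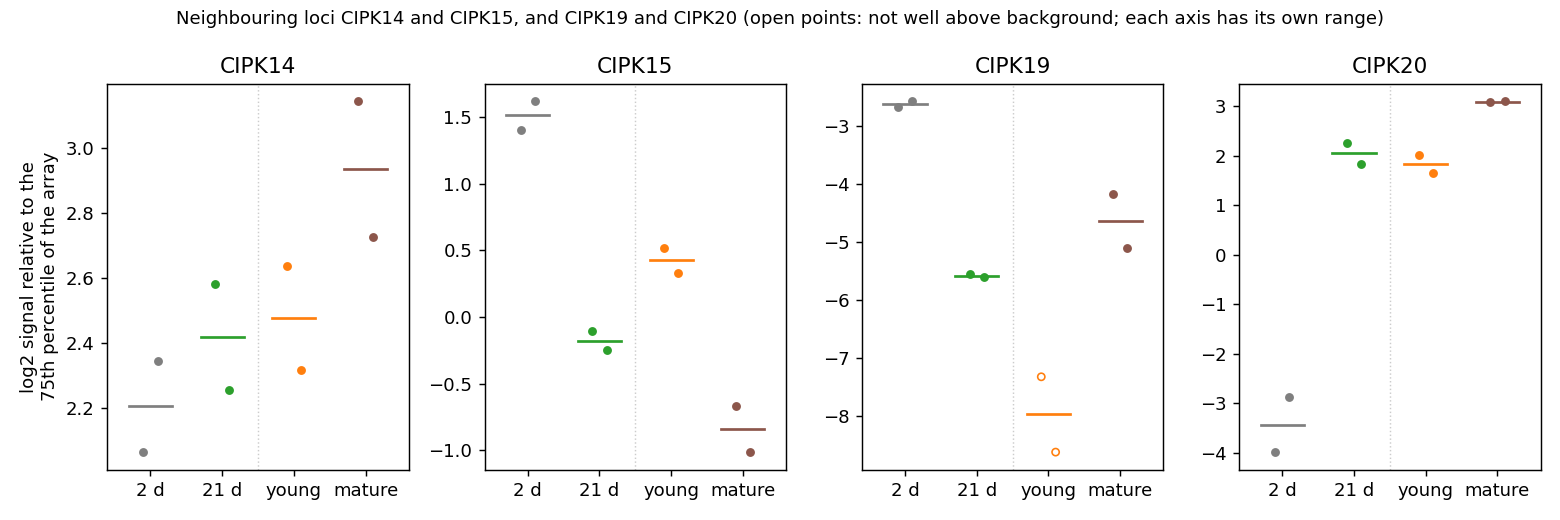
Signal of 2 pairs of neighbouring kinase loci on each array, as log2 relative to the 75th percentile of the array, with bars for the mean of 2 arrays, open points for groups not well above background, and an axis of its own for each gene. CIPK14 was called in neither comparison and CIPK15 was lower in both, and CIPK19 falls from 2 days to the aerial part while CIPK20 rises.

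Neighbouring loci of the family are given side by side. CIPK19 and CIPK20 lie next to each other on the chromosome, and in the aerial part CIPK19 fell (-2.96 ± 0.47) while CIPK20 rose (5.47 ± 0.37), whereas both were higher in mature leaves. CIPK14 (AT5G01820) and CIPK15 are also neighbours. CIPK14 was called in neither comparison, at 0.21 ± 0.21 and 0.46 ± 0.21, and CIPK15 was lower in both, at -1.69 ± 0.15 and -1.26 ± 0.15. The dimmer second probe of CIPK14 was not called either and had the opposite sign between leaf classes, -0.41. CBL7 read 4.07% and 5.31% in young and 4.39% and 6.59% in mature leaves, and its neighbour CBL3 was not analysed.

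Transporters, phosphatases and other partners of CBL and CIPK proteins formed a list of 26, of which 25 were tested. In the aerial part 11 were higher and 5 lower (7 and 6 with spike-in scaling), where 34.8% and 40.3% of all loci were. In mature leaves 16 were higher and 2 lower (6 and 11 with spike-in scaling), where 35.8% and 35.5% of all loci were. Their median in mature leaves was 0.51, and RBOHC among the 16 was undetected in both leaf classes. In the aerial part the root-hair NADPH oxidase RBOHC fell (-4.41 ± 0.12) and the AKT1-interacting phosphatase AIP1 rose (3.38 ± 0.15). The high-affinity potassium transporter HAK5 went undetected (at least 3.36-fold lower), a bound with no rank among the measured changes, of which the guard-cell anion channel SLAC1 (3.08 ± 0.12), named after its value was seen, came next. In mature leaves the largest measured changes were those of AIP1 again (3.42 ± 0.15), the ammonium transporter AMT1;2 (2.04 ± 0.47) and NRT1.1, which fell (-1.98 ± 0.10). In the aerial part AKT1 fell (-2.45 ± 0.21), while its kinase CIPK23 was not called, or was called lower with spike-in scaling (-0.41, adjusted p = 0.0316). SOS1 was not called (0.20 ± 0.09) and its kinase CIPK24 was called higher (0.27 ± 0.07), though these values lie close together. CIPK24 lost that call with spike-in scaling, at -0.014. In mature leaves AKT1 and SOS1 rose, with 1.51 ± 0.21 and 0.98 ± 0.09, as CIPK23 and CIPK24 did. With spike-in scaling AKT1 stayed higher (0.60), SOS1 (0.077) and CIPK23 (0.24) were not called and CIPK24 turned to -0.31.

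Other kinase families were read in the same way. Of all loci 34.8% were called higher and 40.3% lower in the aerial part, and 35.8% and 35.5% in mature leaves. The calcium-dependent protein kinases, which carry their own calcium-binding domain, gave 6 higher and 14 lower of 27 tested in the aerial part (2 and 15 with spike-in scaling). In mature leaves 9 were higher and 6 lower (1 and 24 with spike-in scaling), and CPK16 and CPK25 among the 9 were undetected in both leaf classes. The medians were -0.27 and 0.13. CPK16 and CPK19 fell below detection in the aerial part (CPK16 by at least 3.79-fold, CPK19 by at least 2.54-fold), and CPK2 fell in both comparisons (-2.99 ± 0.10 and -2.52 ± 0.10). CPK6 rose in mature leaves (1.43 ± 0.15) and CPK24 fell at least 1.09-fold. The SnRK1 and SnRK2 kinases, relatives of the CIPKs, gave 5 higher and 3 lower of 12 in the aerial part (2 and 3 with spike-in scaling) and 9 higher and 1 lower in mature leaves (1 and 5 with spike-in scaling), with medians of 0.24 and 0.67. Their leading changes in the aerial part were those of SNRK2.7 (-2.33 ± 0.14), SNRK2.5 (-1.55 ± 0.07) and SNRK2.3 (0.99 ± 0.15). In mature leaves they were SNRK2.9 (3.16 ± 0.33), SNRK2.8 (1.52 ± 0.31, not called with spike-in scaling) and SNRK2.5, which fell (-1.13 ± 0.07).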

How the data were processed

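Per the labels, total RNA was amplified from an oligo(dT) primer and labelled with Cy3, and 8 one-colour arrays were hybridised, 2 in each of 4 groups. They were Agilent arrays of design 021169, scanned and quantified in Feature Extraction 10.10.1.1, per the file headers. The deposited scanner files and the deposited value table both hold intensity in linear units: the processed signal is background-subtracted within an array by the scanner software, and the table equals it times 1 factor per array (2.08 to 4.44). The basis of that factor is not given in the sources used here, so the table served as an alternative only.

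Outlier spots (5 to 13 per array) were left out, and 0 spots were saturated. The log2 of the processed signal minus its 75th percentile on the array was taken. Detection on both arrays of 1 or more groups was required of a probe, and each locus was represented by its brightest passing probe (20629 loci). Probes were tied to loci through RefSeq transcripts. No coordinates or sequences are given, since the gene table at hand is of a later release than the files. A group-means model over the 8 arrays was fitted in limma 3.58.1 under R 4.3.3 (residual df 4, prior df 1.90, 2-sided), and p-values were adjusted over all loci by the Benjamini-Hochberg method. Values after ± are standard errors of this fit, and adjusted p-values in the text come from it or from the same test under the named setting. Where neither array of a group was well above background, the fold is a bound, computed on the higher of the gene's own signal and the dimmest signal that passed on that array. Precision is limited by having 2 arrays per group, with a median standard error of 0.11 over loci.

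The genes, lists and tests were chosen with earlier results of these data known. Per-array values are given for every gene called with a fold of at least 2, and other lists by counts and their 3 called members of largest change. Alternatives covered background correction (normexp, offset 50, on the median spot signal, since the files hold no mean signal), scaling (quantile, median, 8 spike-in probes), the filter, the probe rule, the value table, the variance model, blocks and each array left out. The fit was tested on simulated data. Replicates carry numbers 1 and 2 in every group, and these were not taken as pairs.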

Additional observations from a re-analysis of the deposited data

How the results depend on the processing

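Of 1096 values recomputed for single genes, 966 kept their sign and their side of the threshold, 52 lost a call, 37 gained one and 41 changed sign, 28 of these without a call before or after. Leaving out 1 array gave 8 to 9 genes higher (CIPK alone 5 to 7) and 12 to 14 lower in the aerial part, 21 to 23 in all, and 17 to 20 higher (CIPK alone 16 to 19) and 2 to 4 lower in mature leaves, 19 to 24 in all. Spike-in scaling gave 6 higher, 4 of them CIPK, in the aerial part, and 11 higher, 10 of them CIPK, and 12 lower in mature leaves. Of all 20629 loci it called 4436 higher in the aerial part, and 1840 higher and 14419 lower in mature leaves. Requiring detection on all arrays, 28 genes were tested and 8 were lower in the aerial part, where 6186 of 17135 loci were lower. A fold of at least 2 as well left 14 called in the aerial part, 5 higher, 3 of them CIPK, and 16 in mature leaves, of which 1 was lower. The replicate block gave 12 higher and 15 lower in the aerial part and 22 higher and 4 lower in mature leaves. Of all 20629 loci it called 7335 higher and 8413 lower in the aerial part, and 7587 and 7476 in mature leaves. In the aerial part it also called CIPK9 (adjusted p = 0.00591) and CIPK10 (adjusted p = 0.0431) lower and CBL7 (adjusted p = 0.036) higher, and between leaf classes CBL8, undetected in both, lower (adjusted p = 0.0495). Deviations of same-numbered arrays correlated at -0.07 between the 2-day plants and the aerial part, at 0.25 between leaf classes, and at 0.35 and 0.31 between the aerial part and young and mature leaves, and 2 numbers per comparison do not settle whether they pair. The slide as a block changed 0 calls, because each comparison lies within 1 slide. The cause of these changes was not tested, beyond fewer genes or arrays where the setting leaves some out.

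Sign changes in the aerial part were CIPK16 0.10 with normexp; CIPK6 0.14 and CIPK16 0.054 with quantile normalization; CIPK6 0.045 with median scaling and 0.050 in the value table. With spike-in scaling they were CIPK4 -0.16, CIPK7 -0.14, CIPK14 -0.072, CIPK21 -0.0084 and CIPK24 -0.014. Over the omissions of 1 array the value ranged from -0.19 to 0.17 for CIPK6, -0.14 to 0.43 for CIPK7, -0.14 to 0.013 for CIPK16 and -0.36 to 0.91 for CIPK21. Between leaf classes normexp gave CIPK13 0.57, CIPK18 0.46, CIPK22 0.60 and CBL8 0.65, quantile normalization CIPK22 0.029 and CBL6 -0.55, median scaling CIPK22 0.14, CBL1 0.086 and CBL9 0.11, and the value table CIPK22 0.12. Spike-in scaling gave CIPK2 -0.35, CIPK8 -0.35, CIPK10 -0.63, CIPK11 -0.24, CIPK14 -0.45, CIPK24 -0.31, CIPK26 -0.53, CBL2 -0.75, CBL4 -0.46, CBL6 -0.79 and CBL7 -0.70. Over the omissions of 1 leaf array the value ranged from -0.37 to 0.13 for CIPK22, -0.051 to 0.36 for CBL2, -0.33 to 0.55 for CBL6 and -0.084 to 0.50 for CBL7.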
